A study of Homo sapiens with 9 samples.

Results

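The genes examined here carry symbols of 3 splicing factor families, taken from the table of 26475 gene symbols. These are the SR genes (SRSF followed by a number), the genes whose symbols begin with HNRNP, and the SF3A and SF3B genes. Not all encode a splicing factor. The hnRNP symbols include the processed pseudogenes HNRNPA1P10, HNRNPA1P33, HNRNPA3P1 and HNRNPKP3, the read-through gene HNRNPUL2-BSCL2, and HNRNPU-AS1, which had no annotation here. The symbols gave 52 genes, namely 12 SR, 31 hnRNP and 9 SF3 genes, by a rule on symbols alone, although the families were picked with earlier results of these data known. A filter on low counts kept 46 of the 52 for testing (11 SR, 26 hnRNP and 9 SF3 genes), out of 16417 genes tested in all. RNA was sequenced from A375 cells, an established BRAF mutant human melanoma line, exposed over 24 h to the vehicle DMSO or to TP-472, at a dose of either 5 or 10 µM. The compound TP-472 inhibits BRD9 and BRD7, bromodomain proteins that read acetylated chromatin. Each group had 3 libraries, stated to be biological replicates, and the 3 DMSO libraries served as the control of both doses. The data describe 1 cell line, 1 time point and 1 inhibitor, and in bulk RNA fewer cells of a type and less RNA per cell cannot be told apart.

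SR proteins bind exonic enhancer sequences through RNA recognition motifs and recruit the splicing machinery through domains rich in arginine and serine. The hnRNP proteins coat nascent transcripts, and several of them act against exon inclusion where SR proteins act for it. SF3A and SF3B are the protein subcomplexes of the U2 snRNP that hold it on the branch point of the intron. Many genes of these families produce alternative transcripts with poison exons, so that the level of each protein feeds back on its own mRNA. Counts per gene do not separate such transcripts from the coding ones.

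The proximal promoters of 3 members are shown because these had the largest change called at 10 µM in their family among the members with a sequence to print. The sequences are from RefSeq on GRCh38.p14 and run from 250 bases before the annotated start to 50 bases after it, on the strand of the gene. SRSF8 (chr11:95066627-95066926, + strand) and SF3B6 (chr2:24076277-24076576, - strand) rose at 10 µM, and HNRNPLL (chr2:38602879-38603178, - strand) fell. Capitals mark 4 motifs searched on both strands, namely the CCAAT box, the TATA element TATAAA, the GC box GGGCGG and the ETS-type core CCGGAAG, and no matches overlap in these windows:
SRSF8: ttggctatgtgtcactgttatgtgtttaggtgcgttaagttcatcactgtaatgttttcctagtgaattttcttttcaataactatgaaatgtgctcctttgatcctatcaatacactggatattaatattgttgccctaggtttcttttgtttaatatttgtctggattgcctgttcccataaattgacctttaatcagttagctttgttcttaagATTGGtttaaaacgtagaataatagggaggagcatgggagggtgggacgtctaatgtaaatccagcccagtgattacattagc
SF3B6: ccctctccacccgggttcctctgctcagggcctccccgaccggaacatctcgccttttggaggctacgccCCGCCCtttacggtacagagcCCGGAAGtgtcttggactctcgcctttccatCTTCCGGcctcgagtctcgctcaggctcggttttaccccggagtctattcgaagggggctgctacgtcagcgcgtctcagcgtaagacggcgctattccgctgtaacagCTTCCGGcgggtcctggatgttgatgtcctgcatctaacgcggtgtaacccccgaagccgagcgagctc
HNRNPLL: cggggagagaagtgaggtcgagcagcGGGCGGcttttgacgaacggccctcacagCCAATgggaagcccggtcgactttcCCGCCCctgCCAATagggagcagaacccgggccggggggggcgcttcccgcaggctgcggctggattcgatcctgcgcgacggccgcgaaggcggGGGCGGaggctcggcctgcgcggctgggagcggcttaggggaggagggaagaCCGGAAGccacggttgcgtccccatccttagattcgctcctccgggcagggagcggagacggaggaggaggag

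The windows differed in base composition, with 3 CG dinucleotides for SRSF8, 29 for SF3B6 and 33 for HNRNPLL, and a GC content of 62.0% for SF3B6 and 70.3% for HNRNPLL. GENCODE release 29 places the start of SRSF8 downstream of its RefSeq window and that of HNRNPLL upstream of its own, so which start these cells used is not settled by the counts. A promoter was listed for 43 of the 52 members. Among them 67.4% held GGGCGG against 48.3% of 27305 genes, 53.5% held CCAAT against 39.7%, 25.6% held CCGGAAG against 12.2%, and 14.0% held TATAAA against 14.0%. These shares describe letters in a window and were not tested.

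The libraries held 42483091 to 51298130 expected counts, and levels are given as CPM (expected counts scaled to a common library total) after TMM scaling. Counts of ribosomal RNA genes took 8.20% to 19.9% of a library, with ranges that overlapped between the groups. The melanoma and melanocyte list had SOX10 at 404 to 426 CPM in DMSO. TYR was at 0 in all libraries, and PMEL, MLANA, DCT and TYRP1 reached at most 2.87 CPM in any library. Its summed level was 1381 to 1390 CPM in DMSO and 850 to 927 CPM at 10 µM, a fall carried by CSPG4 (mean 704 and 229 CPM). S100A1 (mean 3.11 and 1.05 CPM) was also called down at 10 µM, while SOX10, MITF and MCAM were not called. Summed marker levels in DMSO and at 10 µM were 49.4 to 56.7 and 67.1 to 97.7 CPM for 6 keratinocyte genes, 6.09 to 6.62 and 5.46 to 8.59 CPM for 6 leukocyte genes, 4.37 to 6.05 and 11.0 to 16.7 CPM for 5 endothelial genes, and 28.4 to 30.5 and 10.1 to 14.9 CPM for 6 fibroblast genes. In each of these lists 1 or 2 genes were called at 10 µM, and their part in the results below was not tested. Library 1 of the 10 µM group (its replicate 1) stood apart, since 19.7% of the variance of its deviations from the group mean followed length and GC content of the transcripts, against at most 1.42% in a DMSO or 5 µM library. The deviations of the other two 10 µM libraries, which are measured from a mean that includes library 1, gave 10.3% and 12.3%. Of the members and other genes described below in which that library was the highest or the lowest, many but not all are given with and without it. HNRNPU, HNRNPU-AS1, HNRNPUL2, SRSF3 and SRSF6 are among those without a fold change that leaves it out.

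Levels between genes were compared per kilobase of merged exon, in DMSO. HNRNPA1, which binds nascent RNA and antagonizes SR proteins at splice sites, had the highest level at 378 ± 12.8 CPM per kb (SD, n = 3). HNRNPA2B1 (142 ± 4.70), HNRNPK (120 ± 2.09), HNRNPAB (109 ± 4.82) and SRSF1 (101 ± 1.18 CPM per kb) came next. HNRNPC at 84.2 ± 1.54 and SRSF2 at 82.2 ± 1.48 CPM per kb differed by less than the sum of their SDs. Of the SF3 genes, SF3B6 stood highest at 60.0 ± 1.44 CPM per kb and SF3A2 lowest at 25.9 ± 0.754. SRSF8 was the lowest of the tested SR genes with 10.0 ± 0.418 CPM per kb. Below the top members the order depended on the length used. Per kilobase of the longest transcript, SF3B2 (99.9) lay above SF3B6 (93.3) and SF3A1 (33.3) below SF3A2 (41.4). By that length HNRNPM (167) and HNRNPC (137) also lay above SRSF1 (108), and SRSF2 was at 86.0 CPM per kb. The 6 members that were not tested (SRSF12, HNRNPA3P1, HNRNPCL2, HNRNPCL3, HNRNPCL4 and HNRNPKP3) reached at most 0.387 CPM in any library. HNRNPCL3 was at 0 in all 9 libraries, and a count of 0 allows up to 3 counts in a library, or 0.0577 to 0.0709 CPM, for counting error alone.

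Replicate spread was small in the control. Over the 43 tested members above 10 CPM in DMSO, the median SD was 2.49% of the mean in DMSO, 2.67% at 5 µM and 9.66% at 10 µM. The quasi-likelihood fit of edgeR used all 9 libraries with 1 spread per gene, and a member was called at a Benjamini-Hochberg adjusted p under 0.05 over all 16417 genes.

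At 5 µM, 1 member rose (SRSF8) and 3 fell (HNRNPA1, HNRNPUL1 and HNRNPU-AS1) of the 46 tested. Over all genes tested, 4.4% rose and 5.81% fell, against 2.17% and 6.52% of the members. No member was called with a fold of at least 1.5, against 4.87% of all genes, and 42 members were not called. The 3 members that fell carry hnRNP symbols, 11.5% of the 26 tested, and HNRNPU-AS1 among them had no annotation. None of the 9 SF3 genes was called by edgeR (1 fell by DESeq2, and 0 rose and 2 fell at an unadjusted p under 0.05). The median log2 fold change was -0.13 for hnRNP, -0.04 for SR and 0.03 for SF3 genes, beside 0.01 for all genes. Without any 1 of the DMSO or 5 µM libraries the count of falls was 1, while 2.43% to 2.99% of all genes fell. Without 10 µM library 1, which enters this comparison through the shared spread, 7 members rose and 19 fell, while 16.5% of all genes rose and 17.6% fell.

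Ranges of the libraries separated more often than the test called. All 3 libraries at 5 µM lay below all 3 DMSO libraries for 22 of the 46 members, against 25% of all genes, and above them for 8, against 23.7%. By family, 17 of 26 hnRNP genes, 2 of 11 SR genes and 3 of 9 SF3 genes lay below. Wholly above lay 1 of 26 hnRNP genes, 2 of 11 SR genes and 5 of 9 SF3 genes. At 10 µM, 25 members lay wholly below DMSO, against 26% of all genes, and 6 wholly above, against 23.4%. The 25 were 19 hnRNP, 3 SR and 3 SF3 genes. The 6 wholly above were 2 SR and 4 SF3 genes, and no hnRNP gene was among them.

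At 10 µM, 5 members rose and 16 fell of 46. This was 10.9% and 34.8% of the members, while 16.4% of all genes rose and 18% fell. The changes were small. Called with a fold of at least 1.5 were 3 members (SRSF8 up, HNRNPA1 and HNRNPA1P10 down), or 6.52%, against 19.1% of all genes, and the median size of the log2 fold change was 0.23 for members and 0.36 for all genes. The hnRNP genes gave 12 falls and no rise of 26 (46.2% down, with 0 rises in edgeR at an unadjusted p under 0.05 and 0 by DESeq2), the SR genes 2 falls and 1 rise of 11, and the SF3 genes 2 falls and 4 rises of 9. Their median log2 fold changes were -0.23, 0.06 and 0.12, beside 0.01 over all genes. The 12 hnRNP falls include the pseudogene HNRNPA1P10 and HNRNPU-AS1, which had no annotation. With a smooth trend on transcript length and GC content removed from each library, 6 members rose and 11 fell, while 20.6% of all genes rose and 18% fell, with 7 hnRNP genes down and 1 up and a median log2 fold change of -0.09 for hnRNP genes beside 0.05 for all genes. Leaving out a library changed these counts by over 1.5 times in several cases: the 16 falls became 8 without DMSO library 2, 10 without DMSO library 3 and 27 without 10 µM library 1, and the 5 rises became 2 without any 1 DMSO library, 3 without any 1 of the 5 µM libraries and 8 without 10 µM library 1. In these fits 12.6%, 12.7% and 25.8% of all genes fell. The share of all genes that rose was 9.74% to 10.2%, 13.5% to 14.2% and 23%, in the same order.

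**Figure D1:**
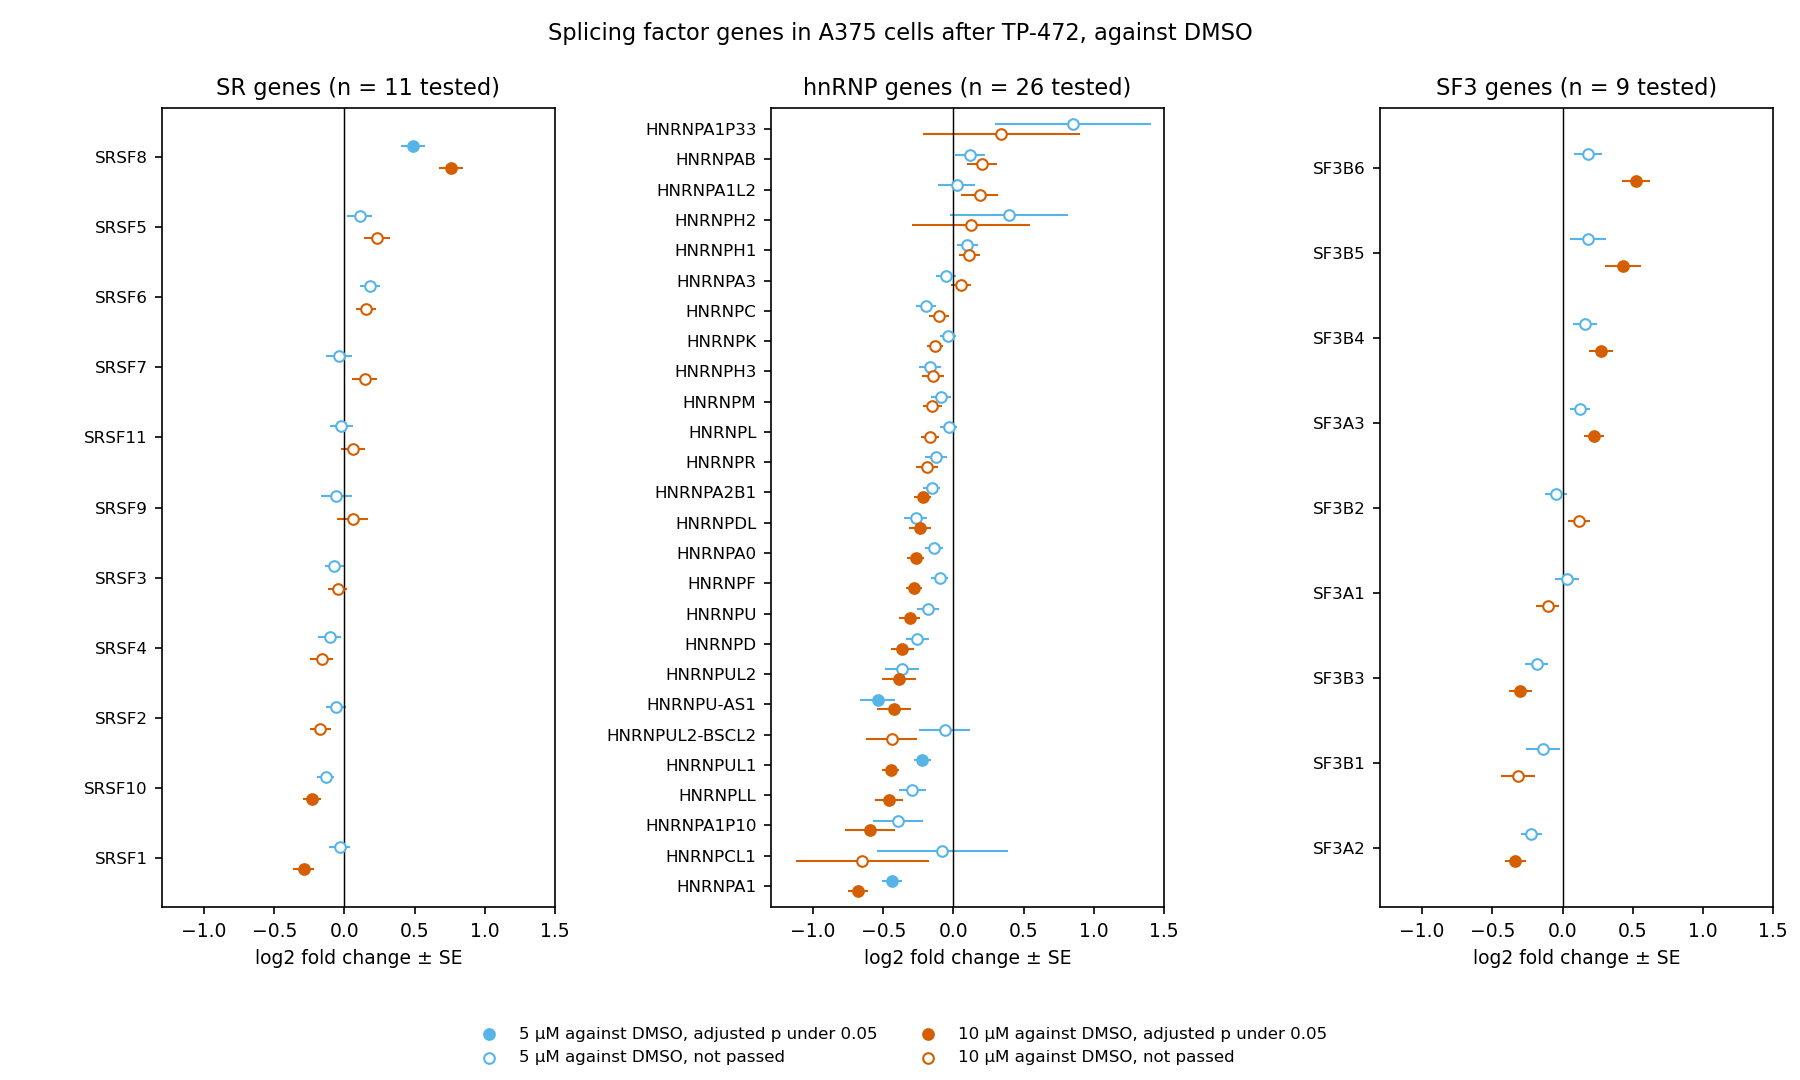
Log2 fold change (x axis) with its standard error for each of the 46 tested members (y axis), in 3 panels by family, at 5 µM (blue) and 10 µM (orange) against DMSO. Filled points passed an adjusted p of 0.05 and open points did not. The hnRNP panel holds 12 filled orange points, all left of 0, and the SF3 panel 4 right and 2 left of 0.

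HNRNPA1 (chr12:54280193-54287088, + strand, GENCODE release 29) was the member with the largest fall at 10 µM. Its level was 1983, 1944 and 1856 CPM in the DMSO libraries, 1431, 1404 and 1426 CPM at 5 µM and 1300, 1098 and 1218 CPM at 10 µM. The 3 groups did not overlap. The log2 fold change was -0.44 ± 0.07 (SE) at 5 µM (adjusted p = 0.00389) and -0.68 ± 0.07 at 10 µM (adjusted p = 7.91e-05), a level 37.5% below DMSO in the fit. Both calls held under all 19 alternatives. GENCODE lists 75 pseudogenes of HNRNPA1, and its values were not whole in 8 of 9 libraries, so reads were shared between copies by the counting. With the 3 near copies in the table (HNRNPA1L2, HNRNPA1P10 and HNRNPA1P33) added, the sum at 10 µM was 62.9% of that in DMSO.

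HNRNPA1P10, a processed pseudogene of HNRNPA1 on chromosome 19, was listed at 19.2, 23.7 and 23.1 CPM in DMSO and at 10.3, 15.1 and 18.3 CPM at 10 µM. The ranges did not overlap, and the log2 fold change was -0.59 ± 0.18 (adjusted p = 0.0278), with library 1 lowest, and was not called without DMSO library 2 or 3 or 10 µM library 2 (-0.62 to -0.54). Without library 1 it was -0.40 ± 0.11 (adjusted p = 0.00535). Its values were not whole in any library, and its change cannot be told apart from that of its parent gene.

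HNRNPUL1 and HNRNPLL followed. HNRNPUL1, an RNA-binding protein of the hnRNP U type that also takes part in the DNA damage response, was at 381, 385 and 370 CPM in DMSO, 322, 325 and 327 CPM at 5 µM and 276, 288 and 269 CPM at 10 µM. It stepped down at each dose with no overlap between groups. Its log2 fold change was -0.22 ± 0.06 at 5 µM (adjusted p = 0.0452) and -0.45 ± 0.06 at 10 µM (adjusted p = 0.000413). The call at 5 µM was lost under 9 of 19 alternatives, among them without any 1 of the DMSO or 5 µM libraries, and the call at 10 µM under none. HNRNPLL, which directs exon skipping of CD45 in activated T cells, was at 53.1, 50.2 and 53.2 CPM in DMSO and 33.3, 41.8 and 38.7 CPM at 10 µM. All treated libraries lay below all DMSO libraries (43.7, 45.1 and 39.0 CPM at 5 µM), and the log2 fold change at 10 µM was -0.46 ± 0.10 (adjusted p = 0.00546), and -0.38 ± 0.07 without library 1, the lowest.

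HNRNPU and HNRNPA2B1 fell among the abundant members. HNRNPU, a nuclear scaffold protein that binds RNA and chromatin, was at 826, 809 and 793 CPM in DMSO, 707, 712 and 722 CPM at 5 µM and 587, 649 and 719 CPM at 10 µM. The DMSO libraries lay above the others, and the log2 fold change at 10 µM was -0.31 ± 0.08 (adjusted p = 0.0113). With the trend on length and GC content removed it was -0.06, no longer called. HNRNPA2B1, which with HNRNPA1 forms the core of the hnRNP particle, was at 1361, 1318 and 1274 CPM in DMSO and 1160, 1081 and 1153 CPM at 10 µM, with 1198, 1136 and 1218 CPM at 5 µM. The log2 fold change at 10 µM was -0.22 ± 0.06 (adjusted p = 0.0204), and the call was lost under 5 of 19 alternatives, among them without DMSO library 1 (-0.20) or 2 (-0.23) and with the trend on length and GC content removed (-0.05).

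HNRNPC and HNRNPK were not called. HNRNPC, which binds uridine tracts and keeps cryptic exons out, was at 621, 622 and 602 CPM in DMSO, 538, 544 and 530 CPM at 5 µM and 621, 521 and 578 CPM at 10 µM. The 5 µM libraries lay below DMSO while the 10 µM libraries overlapped it, with a log2 fold change of -0.20 ± 0.07 (adjusted p = 0.127) and -0.10 ± 0.07 (adjusted p = 0.318). HNRNPK, a KH-domain protein that binds cytosine-rich RNA, was at 627, 614 and 606 CPM in DMSO and 572, 555 and 563 CPM at 10 µM, and the log2 fold change of -0.13 ± 0.06 had an adjusted p of 0.107. Without 10 µM library 1, HNRNPC had a log2 fold change of -0.17 ± 0.04 (adjusted p = 0.00242) and HNRNPK one of -0.14 ± 0.03 (adjusted p = 0.00107).

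The other hnRNP genes that fell at 10 µM were HNRNPU-AS1 (log2 fold change -0.42), HNRNPUL2 (-0.39), HNRNPD (-0.36), HNRNPF (-0.28), HNRNPA0 (-0.27) and HNRNPDL (-0.24), with adjusted p from 0.00509 to 0.0451. HNRNPD, also known as AUF1, binds AU-rich elements and hastens mRNA decay, and HNRNPF binds G-rich tracts. The symbol HNRNPU-AS1 is not in GENCODE release 29 and is a synonym of HNRNPU in RefSeq, so what its reads stand for is uncertain. It was at 32.0, 32.3 and 37.3 CPM in DMSO, 24.3, 23.9 and 21.7 CPM at 5 µM and 30.2, 23.1 and 22.5 CPM at 10 µM, below DMSO in all treated libraries, and its log2 fold change at 5 µM was -0.54 ± 0.12 (adjusted p = 0.0224), not called without any 1 of the DMSO or 5 µM libraries. HNRNPUL2 shares 44.1% of its exonic bases with the read-through gene HNRNPUL2-BSCL2, whose values in the 10 µM libraries were 101, 175 and 180 CPM (log2 fold change -0.44 ± 0.18, not called, and -0.22 ± 0.05, called, without library 1). Summed, the pair ranged over 336 to 349 CPM in DMSO, and over 292 to 309 CPM (5 µM) and 223 to 274 CPM (10 µM) after treatment. The genes BSCL2 and HNRNPUL2 cover 100% of the exonic bases of the read-through gene. Reads of BSCL2, which is not an hnRNP gene by symbol, thus cannot be fully separated from this sum. The 14 hnRNP genes not called at 10 µM ranged from -0.65 (HNRNPCL1, below 1 CPM) to 0.34 (HNRNPA1P33, at most 1.03 CPM) on the log2 fold change scale, and HNRNPL was nearest to the threshold at an adjusted p of 0.0586.

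SRSF8 was the SR gene with the largest change and the largest rise of any member at 10 µM. The gene (chr11:95067197-95071224, + strand) arose as an expressed retrocopy of SRSF2. Its level was 39.1, 42.3 and 39.9 CPM in DMSO, 53.2, 58.9 and 58.4 CPM at 5 µM and 72.2, 62.1 and 71.2 CPM at 10 µM. The 3 groups did not overlap. The log2 fold change was 0.49 ± 0.09 at 5 µM (adjusted p = 0.00605) and 0.76 ± 0.09 at 10 µM (adjusted p = 0.000124), which is 1.69-fold. Both calls held under all 19 alternatives.

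SRSF2 itself, the SR protein also called SC35, was at 243, 251 and 250 CPM in DMSO, 250, 237 and 226 CPM at 5 µM and 235, 221 and 204 CPM at 10 µM. The 10 µM libraries lay below DMSO, but the log2 fold change of -0.17 ± 0.07 was not called (adjusted p = 0.101). It was called without 10 µM library 1 (-0.22 ± 0.05, adjusted p = 0.000897). MFSD11 on the other strand covers 36.7% of the exonic bases of SRSF2, and the values of SRSF2 were not whole in any library.

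SRSF1 and SRSF10 fell at 10 µM. SRSF1, the SR protein also called SF2/ASF and a known oncoprotein, was at 333, 341 and 338 CPM in DMSO, 336, 322 and 331 CPM at 5 µM and 249, 283 and 295 CPM at 10 µM. The 5 µM libraries overlapped DMSO and the 10 µM libraries did not. Its log2 fold change was -0.03 ± 0.07 at 5 µM (adjusted p = 0.849) and -0.29 ± 0.07 at 10 µM (adjusted p = 0.0135), and another annotated gene on the same strand, AC015813.2, covers 56.6% of its exonic bases. The SRSF1 call was lost without DMSO library 2 or 3 (-0.29 in both), and without 10 µM library 1, the lowest, the value was -0.22 ± 0.04 and called. SRSF10, a splicing repressor when dephosphorylated, was at 152, 156 and 150 CPM in DMSO, 143, 134 and 141 CPM at 5 µM and 130, 131 and 130 CPM at 10 µM. All treated libraries lay below DMSO, and the log2 fold change at 10 µM was -0.23 ± 0.06 (adjusted p = 0.0167), not called without any 1 DMSO library (-0.25 to -0.22) or with the trend on length and GC content removed (-0.05).

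SRSF3, the smallest SR protein, was at 311, 308 and 298 CPM in DMSO and 317, 283 and 286 CPM at 10 µM. Its log2 fold change was -0.05 ± 0.07 (adjusted p = 0.619). The groups overlapped through 10 µM library 1, the highest, while 10 µM libraries 2 and 3 lay below all DMSO libraries. Over the 19 alternatives the log2 fold change ranged from -0.11 to 0.08, with a call under 1 of them. The 8 SR genes not called at 10 µM had log2 fold changes from -0.17 to 0.23, with SRSF5 nearest to the threshold (adjusted p = 0.0755). SRSF6 lay above DMSO in all treated libraries, where 163 to 166 CPM in DMSO stood against 184 to 189 CPM (5 µM) and 167 to 194 CPM (10 µM), without a call (adjusted p = 0.126). Reads of SRSF9 cannot be fully separated from GATC, which covers 46.2% of its exonic bases on the other strand.

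The SF3 genes split by member. Rises at 10 µM were found for SF3B6 (also p14), which contacts the branch-point adenosine, SF3B5, SF3B4 and SF3A3. SF3B6 was at 70.0, 72.2 and 73.4 CPM in DMSO, 78.9, 81.8 and 83.7 CPM at 5 µM and 120, 91.7 and 97.8 CPM at 10 µM. The groups did not overlap, and library 1 was the highest. The log2 fold change was 0.18 ± 0.10 at 5 µM (adjusted p = 0.311) and 0.52 ± 0.10 at 10 µM (adjusted p = 0.00292), and 0.40 ± 0.05 (adjusted p = 8.3e-06) without library 1.

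SF3B5, the small subunit that binds SF3B1, was at 36.1, 32.4 and 36.2 CPM in DMSO and 57.7, 41.6 and 41.8 CPM at 10 µM (log2 fold change 0.43 ± 0.13, adjusted p = 0.0279). Library 1 stood well above the others, and without it the log2 fold change was 0.26 ± 0.07 (adjusted p = 0.00872), while without any 1 DMSO library it was 0.38 to 0.46 and with the trend on length and GC content removed 0.19, not called in either case. SF3B4, which touches the pre-mRNA upstream of the branch point, was at 122, 121 and 129 CPM in DMSO and 169, 143 and 138 CPM at 10 µM (log2 fold change 0.27 ± 0.09, adjusted p = 0.0331). SF3A3, a subunit of the SF3A trimer, was at 171, 177 and 180 CPM in DMSO and 223, 194 and 200 CPM at 10 µM (log2 fold change 0.23 ± 0.07, adjusted p = 0.0361). In both genes all 10 µM libraries lay above DMSO with library 1 highest, and the calls were lost under 10 and 9 of 19 alternatives, among them without any 1 of the DMSO or 5 µM libraries. Without library 1 the log2 fold change was 0.17 ± 0.04 for SF3B4 (adjusted p = 0.00382) and 0.16 ± 0.04 for SF3A3 (adjusted p = 0.004). With the trend on length and GC content removed that of SF3B4 was 0.15, not called.

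SF3A2 and SF3B3 fell. SF3A2, another subunit of SF3A, was at 82.2, 78.5 and 83.0 CPM in DMSO, 71.9, 68.8 and 68.3 CPM at 5 µM and 68.5, 65.2 and 59.4 CPM at 10 µM. All treated libraries lay below DMSO, and the log2 fold change at 10 µM was -0.34 ± 0.08 (adjusted p = 0.00708), called under all 19 alternatives. SF3B3, the large scaffold subunit of SF3B, was at 392, 404 and 384 CPM in DMSO and 280, 339 and 339 CPM at 10 µM, with 339 to 352 CPM at 5 µM. Its log2 fold change at 10 µM was -0.30 ± 0.08 (adjusted p = 0.0181), with library 1 lowest, and it was not called without DMSO library 1 (-0.31) or 2 (-0.29) or with the trend on length and GC content removed (-0.14). Without library 1 of the 10 µM group the SF3B3 value was -0.22 ± 0.03 (adjusted p = 8.52e-05).

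SF3B1, the subunit that grips the branch point and is mutated in uveal melanoma, was at 287, 294 and 284 CPM in DMSO, 265, 257 and 264 CPM at 5 µM and 179, 258 and 256 CPM at 10 µM. All treated libraries lay below DMSO, and library 1 of the 10 µM group was far below the other two. Its log2 fold change of -0.32 ± 0.12 at 10 µM was not called (adjusted p = 0.0691). Without library 1 it was -0.17 ± 0.04 with an adjusted p of 0.000882, a smaller change with a smaller error, and it was also called without library 2 (-0.41) or library 3 (-0.40). SF3A1 (-0.11 ± 0.08) and SF3B2 (0.12 ± 0.08 on the log2 fold change scale) were not called.

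**Figure D2:**
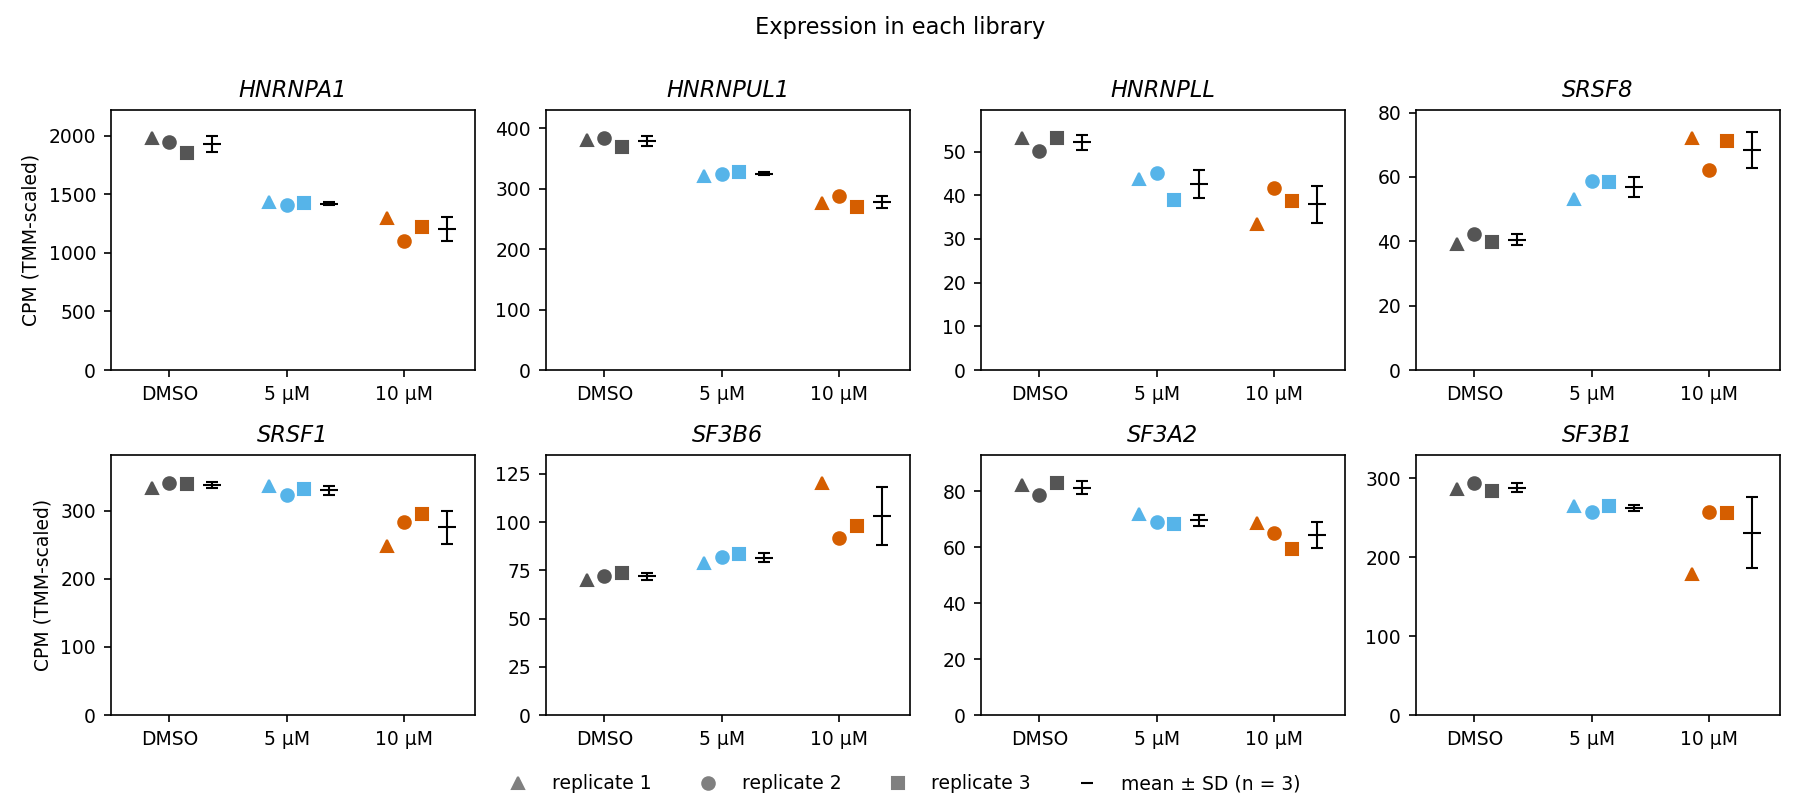
Level of 8 members (CPM after TMM scaling, y axis from 0) in each of the 9 libraries, by group (x axis), with the marker shape giving the replicate number and the bar the mean ± SD of 3 libraries. HNRNPA1, HNRNPUL1 and SRSF8 show 3 separate groups, and for SF3B1 and SRSF1 the 10 µM library 1 (triangle) lies lowest.

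Between the doses, 1 member differed: HNRNPUL1 was lower at 10 µM than at 5 µM by a log2 fold change of -0.22 ± 0.06 (adjusted p = 0.0495). Over all genes, 2.87% were higher and 5.53% lower at 10 µM, and 4.01% were called with a fold of at least 1.5, which no member was. In edgeR at an unadjusted p under 0.05, 2 members were higher and 4 lower, and DESeq2 called 2 and 4. The call for HNRNPUL1 was lost under 15 of 19 alternatives, among them without any 1 of the DMSO or 5 µM libraries or 10 µM library 3. SRSF1 (-0.26 ± 0.07, adjusted p = 0.0637) and SF3B6 (0.34 ± 0.10 on the log2 scale, adjusted p = 0.0642) came next. Without 10 µM library 1, 2 members were higher at 10 µM (SRSF8 and SF3B6) and 11 lower, HNRNPA1 and SRSF1 among them, while 8.8% of all genes were higher and 15.4% lower.

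Summed over the family, hnRNP transcripts were lower after treatment, in CPM after TMM scaling. The sum of all 52 members ranged over 12677 to 13216 CPM in DMSO, 11708 to 11816 CPM with 5 µM TP-472 and 10865 to 11534 CPM with 10 µM. These ranges did not overlap. The hnRNP genes summed to 9272 ± 239 CPM (SD, n = 3) in DMSO, to 8148 ± 59.1 CPM with 5 µM and to 7646 ± 266 CPM with 10 µM, so that 10 µM stood at 82.5% of DMSO. HNRNPA1, which held 20.8% of the hnRNP sum in DMSO, made up 44.4% of the fall in the hnRNP sum at 10 µM. Without it the sum at 10 µM was 87.7% of that in DMSO. The SR sum was 1961 ± 32.1, 1934 ± 29.6 and 1915 ± 90.4 CPM in the 3 groups, with overlapping ranges. For the SF3 genes, whose members changed in both directions, the sum at 10 µM was 98.3% of DMSO (1705 ± 9.23 against 1734 ± 10.3 CPM).

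**Figure D3:**
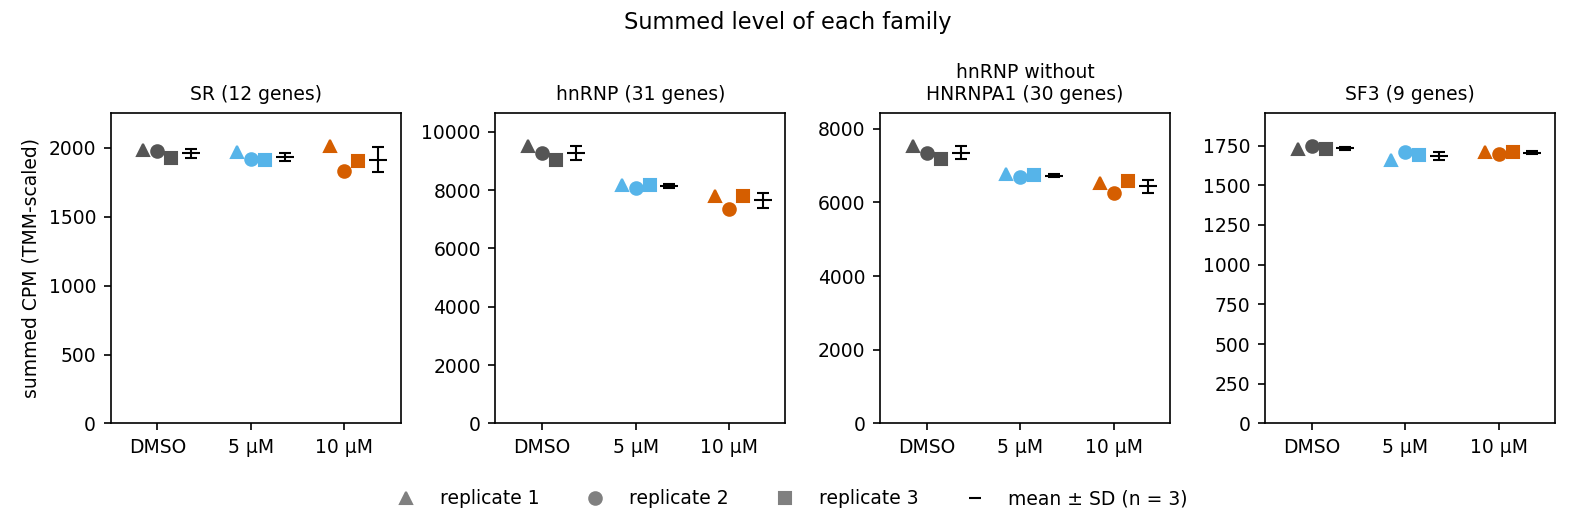
Summed level of each family in each library (CPM after TMM scaling, y axis from 0) by group (x axis), with the marker shape giving the replicate number and the bar the mean ± SD of 3 libraries. The hnRNP sum falls to 82.5% of DMSO at 10 µM and to 87.7% when HNRNPA1 is left out, while the SR sums of the groups overlap.

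Library 1 of the 10 µM group lay above both other 10 µM libraries for 28 of the 46 members, below both for 16 and between them for 2. Over the 45 members with a length, the log2 ratio of library 1 to the other two had a Pearson r of 0.12 with log2 exonic length. The Spearman rho was -0.08, of the opposite sign, and both are descriptions across genes that share the libraries. Their log2 fold changes against DMSO had a Pearson r with log2 exonic length of -0.46 at 5 µM and -0.29 at 10 µM. Over 15323 genes these were -0.08 and -0.16, and the part of length in the members' changes was not tested. Without library 1, 8 members rose at 10 µM and 27 fell, while 23% of all genes rose and 25.8% fell. The hnRNP genes then gave 19 falls and 1 rise of 26 (median log2 fold change -0.23), the SR genes 5 falls and 3 rises of 11 (-0.07) and the SF3 genes 3 falls and 4 rises of 9 (0.03). The SR median thus changed sign with this library, and the hnRNP median did not. HNRNPH1, a G-tract binding protein, was the hnRNP gene that rose without it (log2 fold change 0.16 ± 0.04, adjusted p = 0.00708).

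**Figure D4:**
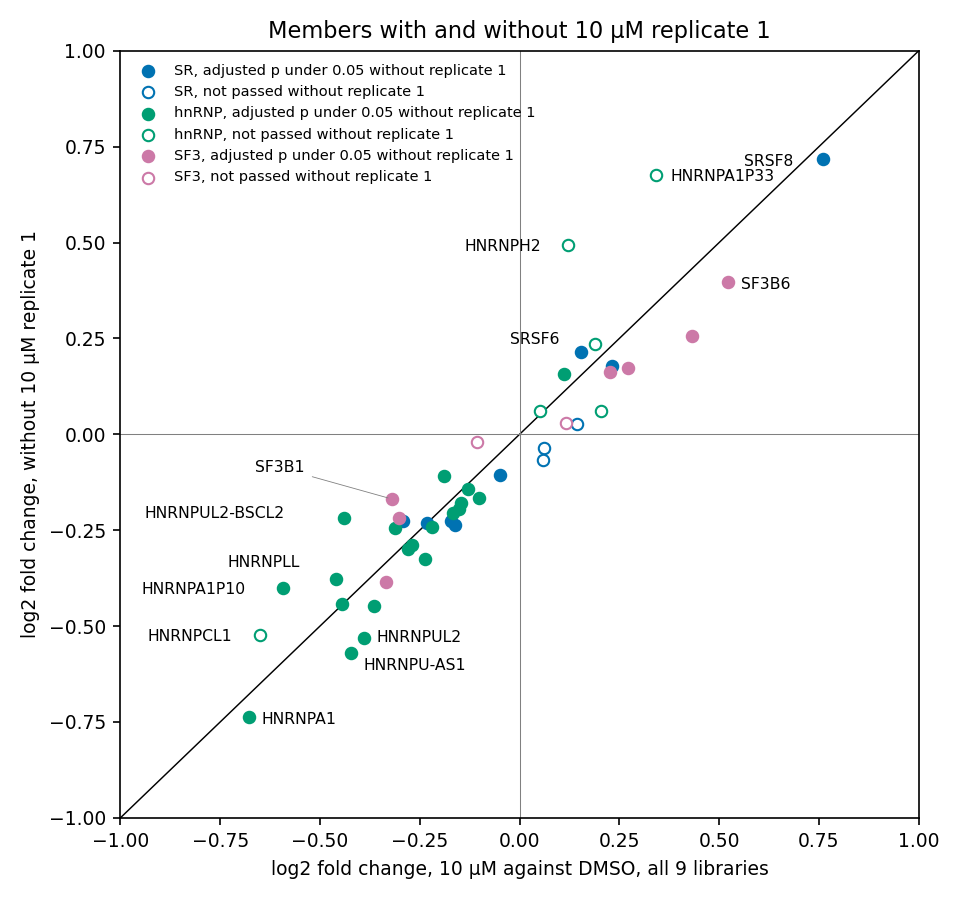
Log2 fold change at 10 µM against DMSO for the 46 tested members with all 9 libraries (x axis) and without 10 µM library 1 (y axis), coloured by family, with the line of equality. Filled points passed an adjusted p of 0.05 without that library: 8 lie above 0 and 27 below, and SF3B1 and SF3B6 lie nearer to 0 than with all libraries.

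The rest of the splicing machinery was taken as 8 lists, to be read beside the 16.4% of all genes that rose at 10 µM and the 18% that fell. Of 14 genes for U2AF and other U2 snRNP proteins, 4 rose and none fell at 10 µM. SNRPA1, the U2 protein A', was at 56.5, 52.5 and 52.2 CPM in DMSO and 95.6, 71.7 and 74.6 CPM at 10 µM (log2 fold change 0.58 ± 0.11, adjusted p = 0.00277), and the helicase gene DDX46 rose by 0.30 ± 0.07 on the log2 scale (adjusted p = 0.00981). Of 11 genes for Sm core and U1 proteins, 1 rose (SNRPC, 0.47 ± 0.11, adjusted p = 0.00764) and 1 fell (SNRPA, -0.47 ± 0.14, adjusted p = 0.0237). Their summed level was 1298 to 1379 CPM in DMSO, 1981 CPM in 10 µM library 1 and 1268 and 1282 CPM in the other 10 µM libraries, so that library 1 lay above all DMSO libraries and the others below them. Of 20 genes of the tri-snRNP and the catalytic core, 3 rose and none fell, with BUD31 (0.69 ± 0.15, adjusted p = 0.00614) and PRPF3 (0.33 ± 0.09, adjusted p = 0.014) having the smallest p. In the absence of 10 µM library 1 the counts were 5 up and 1 down for U2AF and U2, 2 and 4 for Sm and U1, and 9 and 3 for the tri-snRNP list, beside 23% of all genes up and 25.8% down. The log2 fold change without it was 0.44 ± 0.06 for SNRPA1, 0.34 ± 0.06 for SNRPC, -0.67 ± 0.06 for SNRPA and 0.45 ± 0.05 for BUD31, each of them called.

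Regulators moved in both directions. Of 18 tested genes for SR-related proteins 3 rose and 1 fell: RSRC2 was at 65.2 to 67.8 CPM in DMSO and 85.3 to 90.6 CPM at 10 µM (log2 fold change 0.41 ± 0.07, adjusted p = 0.00132), and SRRM3, which promotes microexons, was at 8.09 to 9.72 CPM in DMSO and 4.50 to 5.60 CPM at 10 µM (-0.78 ± 0.14, adjusted p = 0.0024). Of 9 genes for kinases that phosphorylate SR proteins 1 rose and 2 fell, namely SRPK1 (-0.31 ± 0.09, adjusted p = 0.0263) and SRPK2 (-0.29 ± 0.09, adjusted p = 0.0289). The list of PTB and other regulators of exon choice gave 3 rises and 8 falls of 24 and a median log2 fold change of -0.21. KHDRBS1 (Sam68) ranged over 339 to 350 CPM in DMSO, 257 to 260 CPM with 5 µM and 215 to 240 CPM with 10 µM (log2 fold change at 10 µM -0.61 ± 0.07, adjusted p = 9.35e-05), and MBNL1, a muscleblind protein, fell by 0.56 on the log2 scale (adjusted p = 0.00344). The 10 µM libraries of MBNL1 were at 114, 157 and 150 CPM, with library 1 lowest, and without it the log2 fold change was -0.43 ± 0.04. SRPK1 (-0.23 ± 0.06) and SRPK2 (-0.21 ± 0.05) were also called without that library.

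Nonsense-mediated decay clears transcripts that carry poison exons. The 15 genes of the list for this decay included the exon junction genes EIF4A3, MAGOH, MAGOHB, RBM8A and CASC3. Of the 15, 5 rose and none fell at 10 µM, with EIF4A3 and MAGOH among those that rose. EIF4A3, the helicase of the exon junction complex, was at 80.4 ± 0.530 CPM in DMSO (SD, n = 3) and 141, 104 and 109 CPM at 10 µM (log2 fold change 0.55 ± 0.11, adjusted p = 0.00319). SMG5 was raised by 0.29 ± 0.07 on the log2 scale (adjusted p = 0.0096). Of 10 genes for transport partners of SR proteins, which did not include those exon junction genes, 1 rose and 1 fell. NXF1, the mRNA export receptor, ranged over 74.0 to 77.6 CPM in DMSO, 88.3 to 93.1 CPM with 5 µM and 102 to 107 CPM with 10 µM, without overlap (log2 fold change at 10 µM 0.46 ± 0.06, adjusted p = 0.000471), and the exportin gene XPO1 fell by 0.38 on the log2 scale (adjusted p = 0.0225). Without 10 µM library 1 the log2 fold change was 0.40 ± 0.05 for EIF4A3 and -0.25 ± 0.03 for XPO1, both called. In that fit the counts up and down at 10 µM were 5 and 3 for the SR-related list, 1 and 3 for the kinases, 7 and 11 for the PTB list, 8 and 1 for nonsense-mediated decay and 2 and 2 for the transport list. At 5 µM these 8 lists held 3 rises and 2 falls in all, beside 4.4% and 5.81% of all genes.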

How the data were processed

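The authors deposited 1 table of RSEM expected counts per gene symbol for 9 A375 libraries (DMSO, 5 µM and 10 µM TP-472, 3 each). The submitters' processing notes name RSEM 1.2.15, Bowtie2 2.1.0 and hg38, with annotation and use of strand in counting not given in the sources used here. Oligo-dT selected, strand-specific libraries are stated in the sample protocol and ribosomal RNA depletion in the series design, which was not settled. Deposited expected counts (10.6% to 13.8% of values in a library not whole) were rounded and tested with edgeR 4.0.16 in R 4.3.3: TMM factors (0.957 to 1.029), filterByExpr, and the quasi-likelihood F test on all 9 libraries with Benjamini-Hochberg adjustment over 16417 genes, checked on simulated counts. Standard errors were taken as |log2 fold change| over the root of the F statistic. limma 3.58.1 (voom) and DESeq2 1.42.0 served as alternatives, and Python 3.11.15 with pandas 2.3.3 and matplotlib 3.10.9 made tables and figures. Positions, lengths and overlaps are from GENCODE release 29 (GRCh38), with length and GC content for 15323 of the tested genes.

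The members, the 8 splicing lists and the 5 marker lists were chosen with earlier results of these data known. Values per library are given for the 4 largest rises and falls called at 10 µM in each family, members called at 5 µM with a fold of 1.5 or more, the 3 smallest adjusted p between doses, and SRSF1, SRSF2, SRSF3, HNRNPA1, HNRNPA2B1, HNRNPC, HNRNPK, HNRNPU and SF3B1 by role. Of each other splicing list the 2 genes with the smallest p at 10 µM are named. Further members (HNRNPU-AS1, SRSF5, SRSF6, HNRNPH1 and the remaining genes called) were named after their values were seen. No per-sample column was left out.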

Additional observations from a re-analysis of the deposited data

How the results depend on the processing

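At 5 µM (1 rise and 3 falls), fitting the 2 groups compared alone gave 8 rises and 19 falls, DESeq2 gave 9 falls, removing the trend on length and GC content gave 2 rises, and a fold of at least 1.5 left 0 of each. Over all genes, the fit of the 2 groups called 19.3% up and 20.7% down, DESeq2 7.41% and 8.91%, and trend removal 7.67% and 8.06%. Leaving out 1 library gave 1 to 7 rises and 1 to 19 falls, beside 1.56% to 16.5% and 2.43% to 17.6% of all genes. At 10 µM (5 rises and 16 falls), the fit of the 2 groups alone gave 2 rises and 8 falls, no filter on low counts gave 3 rises, and a fold of at least 1.5 left 1 rise and 2 falls. Of all genes, the fit of the 2 groups called 12.7% up and 14.4% down at 10 µM, and no filter 11.2% and 13.6%. Leaving out 1 library gave 2 to 8 rises and 8 to 27 falls, beside 9.74% to 23% and 12.6% to 25.8% of all genes. Between the doses (0 rises and 1 fall), DESeq2 gave 2 rises and 4 falls, the trend removal 2 falls, and RLE factors, upper-quartile factors, no filter, a minimum of 1 CPM in 3 libraries, the 2 groups alone, ribosomal RNA and mitochondrial genes left out, and the fold limit each gave 0 falls. Here DESeq2 called 6.58% of all genes higher and 8.42% lower, and the trend removal 5% and 6.83%. The settings with 0 falls, the fold limit aside, called 1.38% to 6.36% of all genes lower. Leaving out 1 library gave 0 to 2 rises and 0 to 11 falls, beside 0.865% to 8.8% and 2.31% to 15.4% of all genes. The largest counts in these ranges came without 10 µM library 1, and 2 rises between the doses were also found without 10 µM library 2. Where fewer libraries or groups entered the fit, the spread was estimated from fewer libraries, and beyond that the cause was not tested.

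The replicate numbers showed no clear pairing of the libraries. Deviations of same-numbered libraries had correlations of -0.073 to 0.0987, beside -0.085 to 0.0793 for different-numbered ones. With 3 libraries per group, this does not settle whether the libraries were paired. With the replicate block, 1 member rose and 2 fell at 5 µM, 3 rose and 15 fell at 10 µM, and 0 rose and 0 fell between the doses. Of all genes, that fit called 3.18% up and 4.5% down at 5 µM and 14.8% and 17.6% at 10 µM. Between the doses it called 1.83% and 4.2%. The median level of the members per kilobase in DMSO was 38.9 CPM with merged exons and 50.4 CPM with the longest transcript. Of 475 values for single named members under the alternatives, 389 kept their side of the threshold, 76 lost the call, 10 gained it and none of the called changes reversed. The 10 µM fold changes of SRSF8, HNRNPA1, HNRNPLL, HNRNPUL1, SF3B6 and SF3A2 and the 5 µM fold changes of SRSF8 and HNRNPA1 were called under all 19. Of 43 members above 10 CPM in DMSO, 38 had a larger percent SD at 10 µM than in DMSO. Whether depth limited the calls was not tested.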
